A study of Mus musculus with 8 samples.

Results

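The 10 genes described here mark the cells that wrap blood vessels, and their signals were followed in macrophages sorted from mouse mammary tumours. They are 6 genes of pericytes, the cells that sit on the outside of capillaries (Rgs5, Pdgfrb, Cspg4, Kcnj8, Vtn and Gucy1b1), and 4 contractile genes of smooth muscle (Acta2, Tagln, Myh11 and Des). Each of the 21 probe sets annotated with exactly 1 of those symbols was used, out of 45101 measured. Each gene is represented by the probe set chosen by its mean log2 signal over all 8 arrays, the highest of the gene's probe sets, and not by the difference between the groups. The gene list itself was drawn up with results of these arrays known. All 10 genes are among the 18194 genes with a probe set, and all 10 passed the filter on mean signal, set at the 40th percentile, which left 10916 genes to test. Gucy1b1 passed it through the E2f3-deleted arrays, since its control mean lay below the filter.

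Mice of the E2f3-deleted group (PyMT;Lys Cre;E2f3 f/f, FVB strain) carried a floxed E2f3 gene, Lys Cre, a recombinase expressed from the lysozyme gene, and PyMT, a viral oncogene that gives mammary tumours. This group has 4 arrays, called A, E, F and H. The controls (PyMT;E2f3 f/f, same strain) had the floxed gene and the oncogene but no Cre, and their 4 arrays are called B, C, D and G. Mice were 80 days old, and tumour cells bearing the macrophage surface protein F4/80 were sorted by flow cytometry before RNA was hybridised to Affymetrix arrays. No group carried Cre without the floxed gene, so Cre and the loss of E2f3 cannot be told apart. Lysozyme Cre acts in cells of the myeloid lineage. The labels name no separate animal for each array, so the spread behind the p-values is that between arrays and may in part be technical.

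Pericytes are drawn to new vessels by platelet-derived growth factor that endothelial cells release and that the receptor Pdgfrb binds on the pericyte. They and the smooth muscle cells of larger vessels set vessel width by contracting actin and myosin filaments. Nitric oxide from the endothelium relaxes them through guanylate cyclase, and ATP-sensitive potassium channels do so by making the membrane potential more negative. The myoepithelial cells of the mammary gland and the activated fibroblasts of tumours also make some of the contractile proteins.

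The promoter is where transcription factors bind, and contractile genes are a classic target of serum response factor, whose site is called the CArG box. Upstream sequence is shown for 4 genes that carry different results: Acta2 as a contractile gene, Rgs5 as a pericyte gene that varied with it, Gucy1b1 as the member with the largest positive difference and Cspg4 as the member with a negative one. Each is the 250 bases before the gene's start in RefSeq (build GRCm38.p6), written 5′ to 3′ on the gene's strand. They lie at chr19:34255374-34255623 on the minus strand for Acta2, chr1:169655251-169655500 on the plus strand for Rgs5, chr3:82074712-82074961 on the minus strand for Gucy1b1 and chr9:56864854-56865103 on the plus strand for Cspg4. Capitals mark a CArG box in which 1 of the 6 central bases is not A or T.
Acta2: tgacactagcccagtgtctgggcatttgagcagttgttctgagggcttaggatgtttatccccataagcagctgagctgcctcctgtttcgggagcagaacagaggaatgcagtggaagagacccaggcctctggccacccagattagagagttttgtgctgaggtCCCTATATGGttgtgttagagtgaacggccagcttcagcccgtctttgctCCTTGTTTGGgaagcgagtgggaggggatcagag
Rgs5: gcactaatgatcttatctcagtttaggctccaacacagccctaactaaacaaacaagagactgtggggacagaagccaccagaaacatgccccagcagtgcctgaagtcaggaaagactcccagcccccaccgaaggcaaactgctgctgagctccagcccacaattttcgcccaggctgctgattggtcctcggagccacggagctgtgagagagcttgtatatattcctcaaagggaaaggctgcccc
Gucy1b1: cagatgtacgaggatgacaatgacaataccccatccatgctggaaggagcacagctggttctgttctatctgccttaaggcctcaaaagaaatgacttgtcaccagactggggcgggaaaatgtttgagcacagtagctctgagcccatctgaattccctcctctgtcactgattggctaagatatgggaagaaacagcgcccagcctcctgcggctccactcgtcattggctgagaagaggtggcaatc
Cspg4: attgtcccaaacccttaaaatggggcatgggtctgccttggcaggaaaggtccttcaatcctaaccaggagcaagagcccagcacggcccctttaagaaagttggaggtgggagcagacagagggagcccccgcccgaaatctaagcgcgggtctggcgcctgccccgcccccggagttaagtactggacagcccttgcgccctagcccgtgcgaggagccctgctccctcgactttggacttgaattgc
Pdgfrb, Tagln and Myh11 had no such sequence in the sources used here and were not searched. Of the 7 members with such a sequence (also Des, Kcnj8 and Vtn), 0 held a CArG box in its strict form, which 1.21% of 14453 upstream sequences of this length held on either strand. Allowing 1 other base, a choice made after the strict search, Acta2 held 2 matches, which begin 84 and 34 bases before its start. The other 6 held none, and 8.10% of all upstream sequences held such a match. The letters TGGGAA, contained in sites of the Notch effector RBPJ, were found on either strand before Acta2, Gucy1b1 and Vtn (3 of 7), against 21.1% of all upstream sequences. The match in Acta2 overlaps its second CArG match. These matches describe letters and not sites bound by a factor.

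The arrays had medians from 5.65 to 5.69 on the log2 scale. The brighter E2f3 probe set had log2 signals of 7.65, 7.54, 7.53 and 7.79 in E2f3-deleted arrays A, E, F and H, against 7.66, 7.63, 7.83 and 7.58 in control arrays B, C, D and G, and the dimmer one differed by −0.13. Where these probe sets lie relative to the deleted part is not given in the sources used here, so they do not check the labels. Of 14 macrophage markers 13 had a probe set, and their mean log2 signal ran from 12.64 to 12.79 in E2f3-deleted arrays and from 12.83 to 12.93 in controls, with 12 of 13 lower in E2f3-deleted arrays, 0 past the threshold and 4 at an unadjusted p under 0.05. Array H correlated least with its own group (mean r = 0.983 over all probe sets), and the other E2f3-deleted arrays had 0.990 to 0.991. The signal of Gapdh at its 3′ end minus that at its 5′ end, a measure of RNA integrity, was 1.67 ± 0.167 in E2f3-deleted and 1.45 ± 0.064 in control arrays (SD, n = 4 each), and its part in the results was not tested.

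Between the groups, 9 of the 10 genes had a higher mean in E2f3-deleted arrays and Cspg4 a lower one, where 41.3% of all tested genes were higher. The differences, taken on the log2 scale as E2f3-deleted minus control, had a median of 0.75, against −0.03 for all genes tested. None of the 10 passed an adjusted p of 0.05 in limma or with an equal-variance t statistic, and neither did any other gene (0%). At an unadjusted p under 0.05 there were 5 of the 10 in limma, where the share of all genes was 14.2%. Of these, 4 were higher (Gucy1b1, Kcnj8, Pdgfrb and Vtn), against 7.27% of all genes, and 1 was lower (Cspg4), against 6.91%. The E2f3-deleted and control arrays were fully separated in Gucy1b1 and Kcnj8 (2 of 10, against 8.49% of all genes), both higher (4.26% of all genes). Gucy1b1, Vtn and Rgs5 (3 of 10) were at least 2-fold higher, against 1.91% of all genes. Gucy1b1 passed the filter through the E2f3-deleted arrays, and it is in each of these counts of higher or separated genes. Among the other 5 pericyte members 4 were higher and 4 had an unadjusted p under 0.05 in limma, of which Cspg4 was lower. Of the 4 contractile members 0 had such a p. In sorted cells measured in bulk, a greater number of cells of a type and more RNA per cell cannot be told apart.

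**Figure D1:**
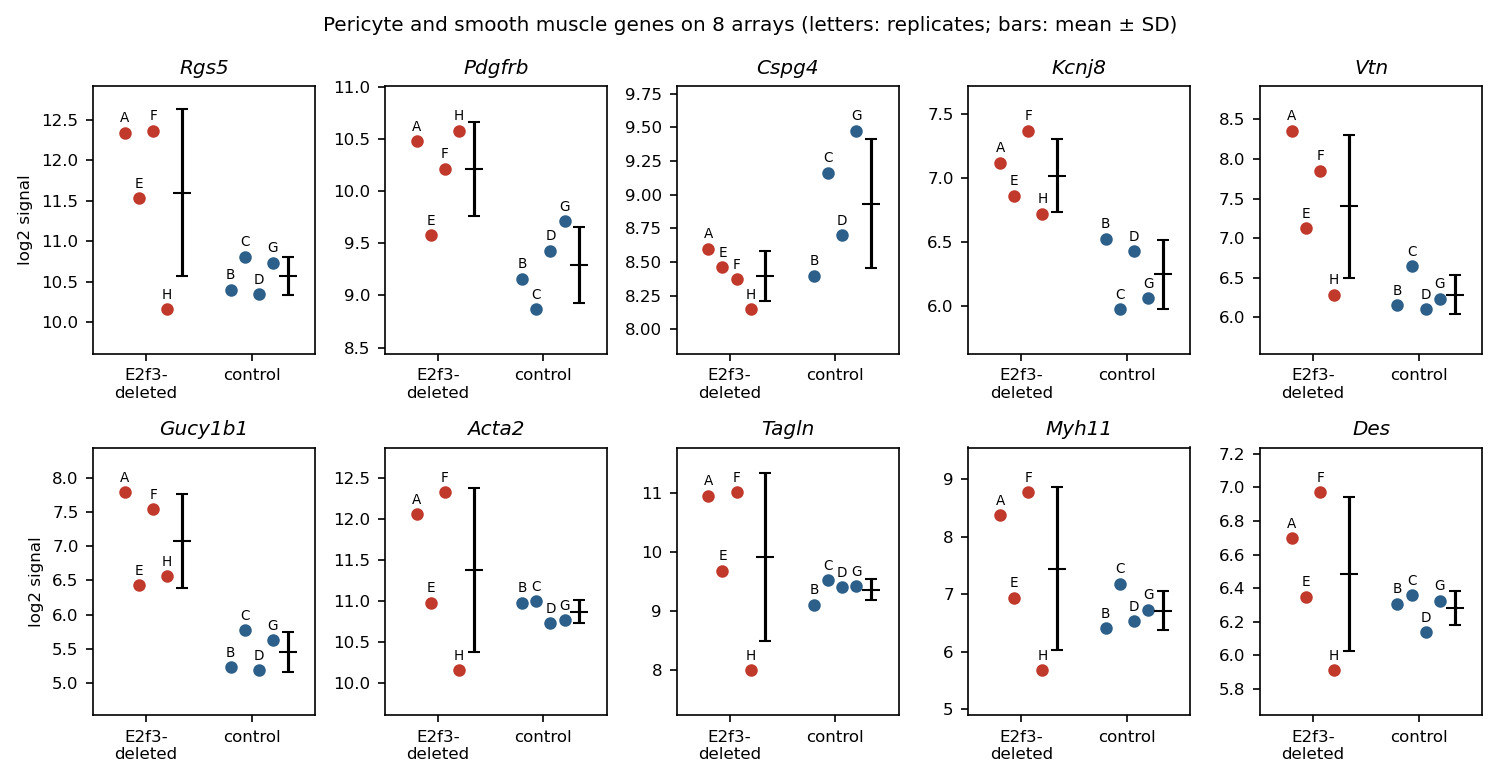
Log2 signal (vertical axis, a separate scale for each gene) of the 10 genes on the 4 E2f3-deleted arrays (red, left) and the 4 control arrays (blue, right). Letters are replicates and bars are mean ± SD; in Rgs5, Vtn and the 4 contractile genes replicates A and F lie above all controls, while replicate H lies within or below them.

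Among the pericyte genes, Gucy1b1 had the largest difference. It encodes the beta subunit of soluble guanylate cyclase, the receptor for nitric oxide. Its log2 signal was 7.80, 6.43, 7.55 and 6.56 in E2f3-deleted arrays A, E, F and H, against 5.22, 5.77, 5.18 and 5.62 in control arrays B, C, D and G. All 4 E2f3-deleted arrays lay above every control, and A and F were more than a log2 unit above E. The mean was 7.08 ± 0.691 in E2f3-deleted and 5.45 ± 0.292 in control arrays (SD, n = 4 each), a 3.11-fold difference (log2 1.64, SE 0.325, 95% interval 0.89 to 2.38; limma, adjusted p = 0.16).

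Kcnj8, the pore subunit of the potassium channel of vascular mural cells, also had groups that did not overlap. Its log2 signal was 7.12, 6.86, 7.37 and 6.72 in E2f3-deleted arrays A, E, F and H, against 6.53, 5.98, 6.43 and 6.06 in control arrays B, C, D and G. The lowest E2f3-deleted array (H) and the highest control (B) were close, so the separation was narrow. The difference was 0.77 (SE 0.175, 1.71-fold, 95% interval 0.37 to 1.17; limma, adjusted p = 0.186).

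Pdgfrb, the receptor that recruits pericytes and that fibroblasts make as well, had log2 signals of 10.48, 9.58, 10.21 and 10.58 in E2f3-deleted arrays A, E, F and H, against 9.16, 8.87, 9.43 and 9.71 in control arrays B, C, D and G. Replicates A, F and H lay above every control, and replicate E lay just under control replicate G. Unlike Rgs5, Pdgfrb had its highest value in replicate H. The difference was 0.92 (SE 0.251, 1.89-fold, 95% interval 0.34 to 1.5; limma, adjusted p = 0.223).

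Vtn encodes vitronectin, an adhesive glycoprotein of plasma and matrix. It had log2 signals of 8.36, 7.12, 7.85 and 6.28 in E2f3-deleted arrays A, E, F and H, against 6.15, 6.65, 6.11 and 6.23 in control arrays B, C, D and G. Replicates A, E and F lay above all controls, and replicate H lay among them. The difference was 1.12 (SE 0.405, 2.17-fold, 95% interval 0.19 to 2.05; limma, adjusted p = 0.292).

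Rgs5 encodes a protein that speeds the shutting off of G protein signals, and it is among the most used markers of pericytes. Its log2 signal was 12.34, 11.53, 12.37 and 10.16 in E2f3-deleted arrays A, E, F and H, against 10.40, 10.81, 10.34 and 10.74 in control arrays B, C, D and G. Replicates A, E and F again lay above all controls, and replicate H below all of them. The groups' means were 11.60 ± 1.03 in E2f3-deleted and 10.57 ± 0.234 in control arrays (SD, n = 4 each), a difference of 1.03 (SE 0.458, 2.04-fold, 95% interval −0.03 to 2.08; limma, adjusted p = 0.364). Without replicate H it was 1.51 (SE 0.225; limma, adjusted p = 0.0636). It was 0.77 without replicate F (SE 0.465; limma, adjusted p = 0.474) and 0.78 without replicate A (SE 0.471; limma, adjusted p = 0.555).

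Cspg4, a membrane proteoglycan of pericytes and of other progenitor cells, ran the other way. Its log2 signal was 8.60, 8.46, 8.37 and 8.15 in E2f3-deleted arrays A, E, F and H, against 8.40, 9.16, 8.70 and 9.48 in control arrays B, C, D and G. The E2f3-deleted arrays were close together, and the controls were spread, with replicates C and G high and replicate B among the E2f3-deleted arrays. The difference was −0.54 (SE 0.225, 1.45-fold lower, 95% interval −1.06 to −0.02; limma, adjusted p = 0.339). It depended on control replicates, with −0.36 without replicate G and −0.72 without replicate B.

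The 4 contractile genes had positive differences smaller than their spread. Acta2, the actin of smooth muscle, had log2 signals of 12.05, 10.98, 12.32 and 10.16 in E2f3-deleted arrays A, E, F and H, against 10.98, 11.00, 10.73 and 10.77 in control arrays B, C, D and G. Replicates A and F lay above all controls, E among them and H below them. The controls spanned 0.27 log2 units and the E2f3-deleted arrays 2.17. The difference was 0.51 (SE 0.436, 95% interval −0.49 to 1.51; limma, adjusted p = 0.606).

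Tagln, an actin-binding protein of smooth muscle, also had A and F high and H low, with E just above the controls. Its log2 signal was 10.96, 9.68, 11.01 and 7.98 in E2f3-deleted arrays A, E, F and H, against 9.10, 9.52, 9.40 and 9.42 in control arrays B, C, D and G. Replicate H was more than a log2 unit below the lowest control. The difference was 0.55 (SE 0.619, 95% interval −0.87 to 1.97; limma, adjusted p = 0.696).

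Myh11, the myosin heavy chain of smooth muscle, had log2 signals of 8.38, 6.94, 8.78 and 5.68 in E2f3-deleted arrays A, E, F and H, against 6.41, 7.19, 6.54 and 6.73 in control arrays B, C, D and G. Its E2f3-deleted arrays spanned 3.10 log2 units, the widest range among the 10 genes. The difference was 0.73 (SE 0.629, 95% interval −0.72 to 2.17; limma, adjusted p = 0.609).

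Des, the intermediate filament protein desmin of muscle and mural cells, had log2 signals of 6.70, 6.35, 6.97 and 5.91 in E2f3-deleted arrays A, E, F and H, against 6.31, 6.36, 6.14 and 6.32 in control arrays B, C, D and G. The same 2 arrays were high and the same array low. The difference was 0.20 (SE 0.206, 95% interval −0.27 to 0.68; limma, adjusted p = 0.668). Skeletal muscle, another source of desmin, had 8 of its 9 markers under the filter on mean signal, and the mean log2 signal of all 9 was 4.63 to 4.72 in E2f3-deleted and 4.63 to 4.90 in control arrays. The marker above the filter, Mb, ran from 5.61 to 6.64 in E2f3-deleted and from 5.52 to 7.23 in control arrays. The part of skeletal muscle in the signal of Des was not tested.

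Relative to the control mean, the genes showed different patterns over the E2f3-deleted arrays. The mean of the 4 contractile genes was 1.21 and 1.47 higher in replicates A and F, 0.18 higher in E and 0.87 lower in H, with controls from −0.11 to 0.21. Rgs5 and Vtn shared the high A and F and had intermediate values in E (0.96 and 0.84), and in H Rgs5 had −0.41 while Vtn lay at the control mean. Gucy1b1 and Kcnj8 were above the control mean on all 4 arrays, in H by 1.11 and 0.47, and Pdgfrb was highest in H, at 1.29. Over the 8 arrays, as a description, the Pearson correlations between the 4 contractile genes were 0.947 to 0.979, those of Rgs5 with them 0.909 to 0.939 and those of Pdgfrb with them 0.170 to 0.254. The contractile genes and Rgs5 share the high arrays A and F and the low array H.

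**Figure D2:**
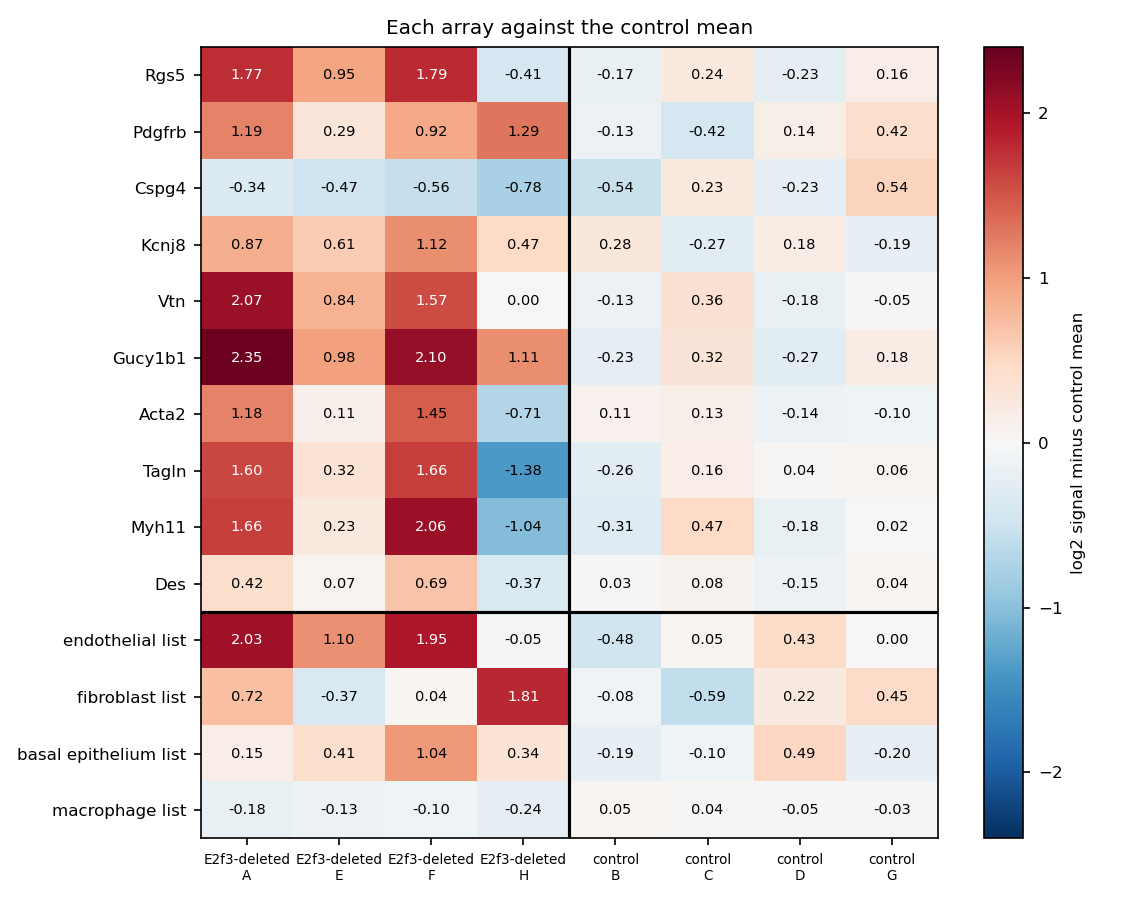
Log2 signal of the 10 genes (rows above the line) and mean log2 signal of 4 marker lists (rows below it) on each array, minus the control mean (colour and printed value); E2f3-deleted arrays stand left of the vertical line and controls right. The contractile genes and the endothelial list were high in replicates A and F (2.03 and 1.95 for the endothelial list), and the fibroblast list was highest in replicate H (1.81).

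Markers of other cell types were high on some of the same arrays. All 18 endothelial markers had a probe set, 16 were tested and all 16 had a higher mean in E2f3-deleted arrays. With 0 past the threshold, 14 had an unadjusted p under 0.05 in limma, where 7.27% of all genes were higher at such a p. Of the 16, 5 had a control mean below the filter and passed it through the E2f3-deleted arrays; among the other 11 all were higher and 9 had an unadjusted p under 0.05. Over all 18 the median difference was 1.18. Their mean log2 signal ran from 6.65 to 8.72 in E2f3-deleted and from 6.21 to 7.13 in control arrays. In E2f3-deleted arrays A, E, F and H it lay 2.03, 1.10, 1.95 and −0.05 from the control mean. Over the 8 arrays its correlation with Rgs5 was 0.941, with Vtn 0.938, with Myh11 0.864 and with Pdgfrb 0.540. The endothelial list holds the growth factor receptor Kdr, for example, with a difference of 1.10, and Mmrn2, with 1.79.

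The 18 fibroblast markers had a mean log2 signal of 8.59 to 10.78 in E2f3-deleted and of 8.37 to 9.42 in control arrays, highest in replicate H. All 17 that were tested had a higher mean in E2f3-deleted arrays, with 0 past the threshold and 0 at an unadjusted p under 0.05 (limma). Without replicate H, 5 of the 17 had a lower mean, and the list's median was 0.06, against 0.54 with it. The list's correlation over the 8 arrays was 0.793 with Pdgfrb and −0.212 with Rgs5. For the mean of the macrophage markers these were −0.897 and −0.278. With Gucy1b1 and Kcnj8 the macrophage mean had −0.674 and −0.608, and with Cspg4 0.538. In a fit with the fibroblast mean as covariate, added after the data were seen, the difference of Pdgfrb was 0.66 (SE 0.150; limma, adjusted p = 0.189) and that of Rgs5 1.37 (SE 0.406; limma, adjusted p = 0.269). In E2f3-deleted arrays A, E, F and H that mean itself lay 0.72, −0.37, 0.04 and 1.81 from the control mean. With its correlation with Pdgfrb, this fit cannot separate it from the group difference of Pdgfrb. The collagen gene Col1a2 averaged 12.40 ± 0.608 in E2f3-deleted and 12.29 ± 0.894 in control arrays (SD, n = 4 each), and Col3a1 had a difference of 0.54, or 0.21 without replicate H.

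The 7 markers of basal and myoepithelial cells, which also make Acta2, Tagln and Myh11, had a mean log2 signal of 6.21 to 7.11 in E2f3-deleted and of 5.87 to 6.55 in control arrays, highest in replicate F. Of these 3 were tested, all with a higher mean, 0 past the threshold and 1 at an unadjusted p under 0.05. The 1 is Trp63, which passed the filter through the E2f3-deleted arrays, with a control mean below it; the other 2 are the keratins Krt5 and Krt14. Of all 7 with a probe set, 6 had a higher mean. The genes differed in which E2f3-deleted arrays were high. Among these 4 arrays Krt5 and Krt14 were highest in F, at 9.62 and 10.35, and lowest in H, at 7.48 and 8.29. Trp63 was highest in H, at 7.59, and lowest among them in A, at 6.0. Among the E2f3-deleted arrays the list mean was lowest in A, 0.15 above the control mean, and stood 0.34 above it in H. Mean log2 signals of the other lists, in E2f3-deleted and then in control arrays, were 9.0 to 9.97 and 9.05 to 10.01 for luminal epithelium (14 genes), 6.05 to 8.88 and 5.76 to 6.34 for mast cells (9 genes), 7.74 to 8.20 and 7.73 to 7.88 for glia (4 of 6 genes) and 4.67 to 5.47 and 4.18 to 5.0 for fat cells (4 of 6 genes). The part of these cell types in the differences of the 10 genes was not tested.

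The other probe sets of the 10 genes, 11 in all, mostly had the same direction. Tagln and Kcnj8 have 1 probe set each. The 4 probe sets of Rgs5 differed by 1.03, 0.95, 1.03 and 0.46, and the second probe sets of Gucy1b1, Pdgfrb, Vtn and Cspg4 by 0.97, 0.71, 0.36 and −0.46. The dimmer probe sets of Acta2 (0.00 and 0.06), Myh11 (−0.02) and Des (−0.08) had log2 means of 3.02 to 4.82, all under the filter. The second probe sets of Gucy1b1 (mean 4.87) and Vtn (5.28) and the dimmest of Rgs5 (5.30) also lay under it. In the fit over all probe sets with 1 symbol none of the 21 passed (limma, smallest adjusted p = 0.218, for the dimmer probe set of Gucy1b1).

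**Figure D3:**
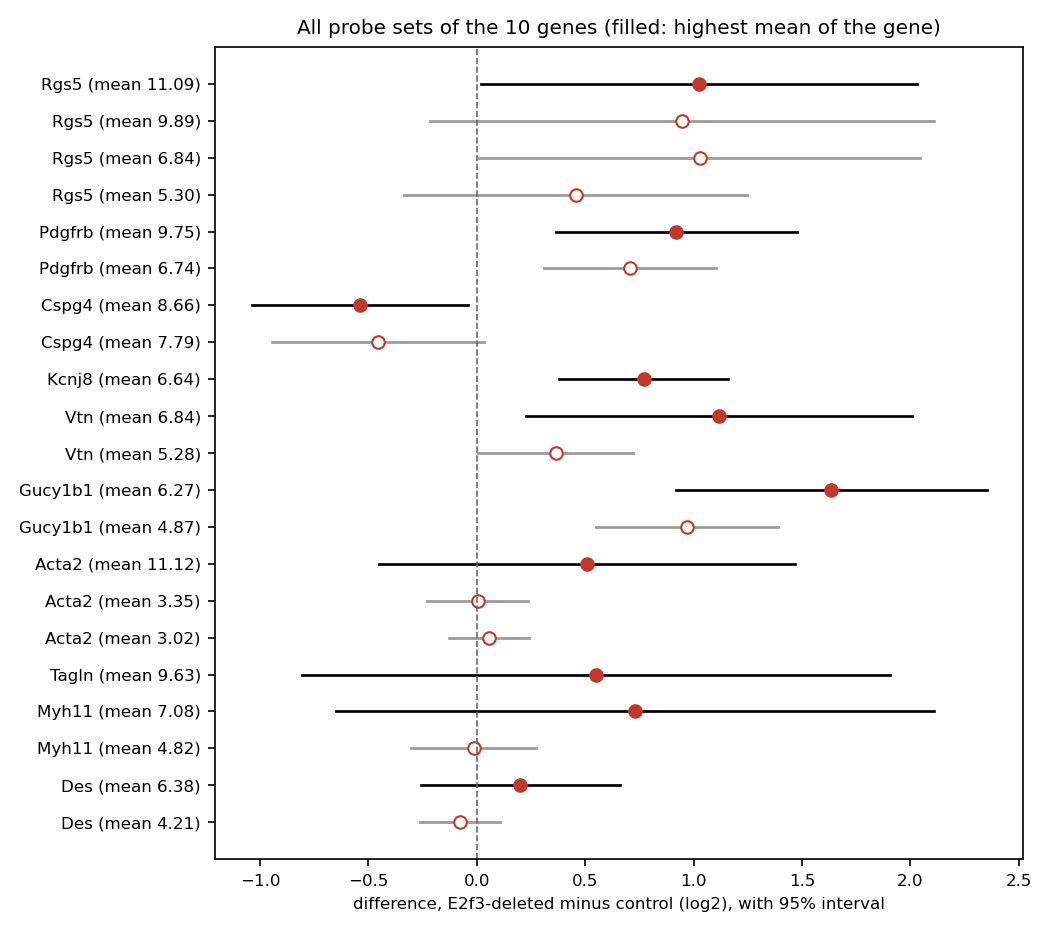
Difference in log2 signal, E2f3-deleted minus control (horizontal axis), with the 95% interval of the fit over all probe sets, for the 21 probe sets of the 10 genes; filled circles are the probe sets that stand for a gene. The intervals of both probe sets of Gucy1b1, of Pdgfrb and of Vtn and that of Kcnj8 lie above 0, as do those of 2 of the 4 of Rgs5, whereas those of Acta2, Tagln, Myh11 and Des include 0.

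Among other genes of pericytes, of 16 with a probe set 11 were tested, and all 11 had a higher mean in E2f3-deleted arrays (median 0.78, against −0.03 for all genes tested). With 0 past the threshold, 4 had an unadjusted p under 0.05 in limma, where 7.27% of all genes were higher at such a p. Of the 11, Higd1b, Rgs4 and Art3 passed the filter with a control mean below it, so that they were tested through the arrays where they are high; among the other 8 all were higher and 3 had an unadjusted p under 0.05. Over all 16, 15 were higher and the median was 0.78. Abcc9, the regulatory subunit that pairs with the Kcnj8 pore, had log2 signals of 9.75, 8.80, 9.39 and 8.83 in E2f3-deleted arrays A, E, F and H, against 8.53, 8.24, 8.44 and 8.43 in control arrays B, C, D and G. All E2f3-deleted arrays lay above the controls, as in Kcnj8 (difference 0.78, SE 0.209; limma, adjusted p = 0.218). The other channel pore of this kind, Kcnj11, had a difference of −0.07 (SE 0.052; limma, adjusted p = 0.532).

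The other 3 pericyte genes with the smallest p also had groups that did not overlap. Art3, an ADP-ribosyltransferase family member, had a difference of 0.98, a control mean below the filter, and was lowest among E2f3-deleted arrays in replicate H (5.95), as Rgs5 was. Steap4, a metalloreductase, and Kcne4, a regulatory subunit of potassium channels, had differences of 1.55 and 1.09 and were highest in replicate H, at 12.31 and 8.71, as Pdgfrb was. Without replicate H they were 1.04 and 0.81.

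Of 20 other contractile genes 14 were tested, of which 12 had a higher and 2 a lower mean (median 0.60). With 0 past the threshold, 6 had an unadjusted p under 0.05 in limma, all higher, against 7.27% of all genes. Of the 14, 2 passed the filter with a control mean below it, and among the other 12 there were 10 higher and 5 at an unadjusted p under 0.05. Over all 20 the median was 0.29, with 16 higher. Mylk, the kinase that activates smooth muscle myosin, had log2 signals of 10.17, 8.92, 9.80 and 9.48 in E2f3-deleted arrays A, E, F and H, against 8.27, 8.48, 8.27 and 8.43 in control arrays B, C, D and G. Its groups did not overlap, and in contrast to Myh11 replicate H was above all controls (difference 1.23, SE 0.236; limma, adjusted p = 0.158). Pgm5, a protein of muscle adhesion plaques, had a difference of 1.13 (SE 0.210; limma, adjusted p = 0.158) and a control mean below the filter, the actin-binding Cald1 0.84 and the tropomyosin Tpm1 0.43. Srf, which encodes serum response factor itself and is named for that role after its value was seen, had −0.04 (SE 0.085; limma, adjusted p = 0.845).

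Of 5 genes of the platelet-derived growth factor system 4 were tested, of 10 of the nitric oxide pathway 3, of 3 channel partners 2 and of 5 vitronectin partners 4, with 0 past the threshold in each. The platelet-derived growth factors Pdgfa, Pdgfb and Pdgfc had differences of 0.17, −0.12 and −0.07, none past the threshold, and the receptor Pdgfra had 0.65 (SE 0.740). The ligand Pdgfd lay under the filter and is named after its value was seen. In the fit without the filter it had 1.92 (SE 0.356; limma, adjusted p = 0.186), with groups that did not overlap. Without replicate H, Pdgfa had −0.02 and Pdgfra 0.07. Prkg1, the kinase activated downstream of guanylate cyclase, had log2 signals of 7.45, 6.65, 7.38 and 7.75 in E2f3-deleted arrays A, E, F and H, against 6.11, 6.39, 6.18 and 6.53 in control arrays B, C, D and G. As with Gucy1b1, the groups did not overlap (difference 1.01, SE 0.222; limma, adjusted p = 0.186). Nos1 and Vasp of the same pathway had 0.08 and −0.15. The integrin genes for receptors of vitronectin, Itgav, Itgb3 and Itgb5, had 0.10, 0.18 and −0.12, and Plaur, another vitronectin-binding receptor, −0.26 (SE 0.101; limma, adjusted p = 0.304).

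**Figure D4:**
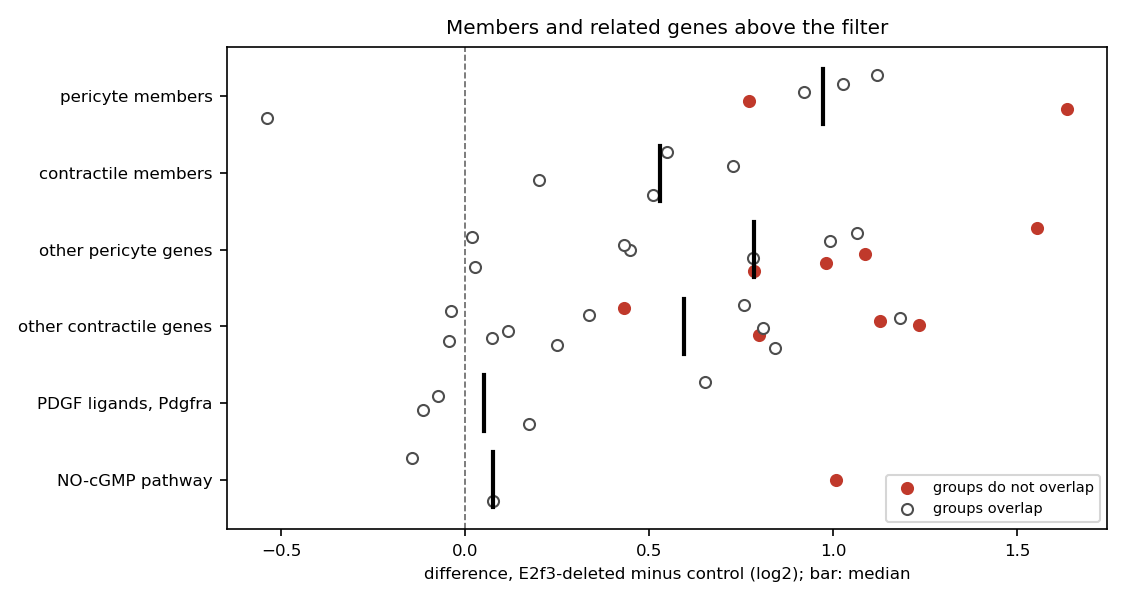
Difference in log2 signal, E2f3-deleted minus control (horizontal axis), of the 6 pericyte and 4 contractile members and of related genes above the filter on mean signal; each point is a gene, the bar is the median and red points are genes whose 4 and 4 values do not overlap. The medians of the other pericyte and other contractile genes are 0.78 and 0.60, and those of the platelet-derived growth factor and nitric oxide lists 0.05 and 0.08, from the 4 and 3 genes above the filter; over all genes with a probe set these medians are 0.78, 0.29, 0.17 and 0.56.

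The tested genes whose log2 signals followed a member most closely over the 8 arrays were listed by Pearson correlation, as a description. For Rgs5 they were Igf2 (0.995), Dll1 (0.994), Ackr1 (0.992), Aoc3 (0.989) and Notch3 (0.988). For Pdgfrb they were Csgalnact1 (0.993), Msrb3 (0.989), Lhfp (0.986), Vezf1 (0.981) and Lrrc75b (0.975), none of them in the list of Rgs5. Acta2 was followed by Kank3 (0.993), Des (0.979), Myh11 (0.978), Myl9 (0.975) and Thsd1 (0.975). Myh11 was followed by Gm13889 (0.988), Myl9 (0.980), Acta2 (0.978), Ifitm1 (0.975) and Cracr2b (0.975). These were picked as the highest of 10916 genes over 8 arrays, and those of Rgs5, Acta2 and Myh11 share the high arrays A and F.

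Single arrays set the size of several differences. Without E2f3-deleted replicate H, Rgs5 differed by 1.51 (2.84-fold), Vtn by 1.49, Acta2 by 0.92, Tagln by 1.19, Myh11 by 1.32 and Des by 0.39, 0 of the 10 passed the threshold (0.128% of all genes did), and 9 of the 10 had an unadjusted p under 0.05 in limma (13.8% of all genes), all higher (8.51%). Without replicate F the contractile genes had 0.19 (Acta2), 0.18 (Tagln), 0.28 (Myh11) and 0.04 (Des), and 3 of the 10 had an unadjusted p under 0.05 (13.4% of all genes), all higher (5.89%). Without replicate A the values were 0.29, 0.20, 0.42 and 0.13. Rgs5 had 0.77 without F and 0.78 without A, and Vtn had 0.97 and 0.80. Gucy1b1 ranged from 1.40 to 1.85, Kcnj8 from 0.65 to 0.87 and Pdgfrb from 0.78 to 1.13 when each array was left out in turn. The counts without H and without F both hold Gucy1b1, which passed the filter through the E2f3-deleted arrays.

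**Figure D5:**
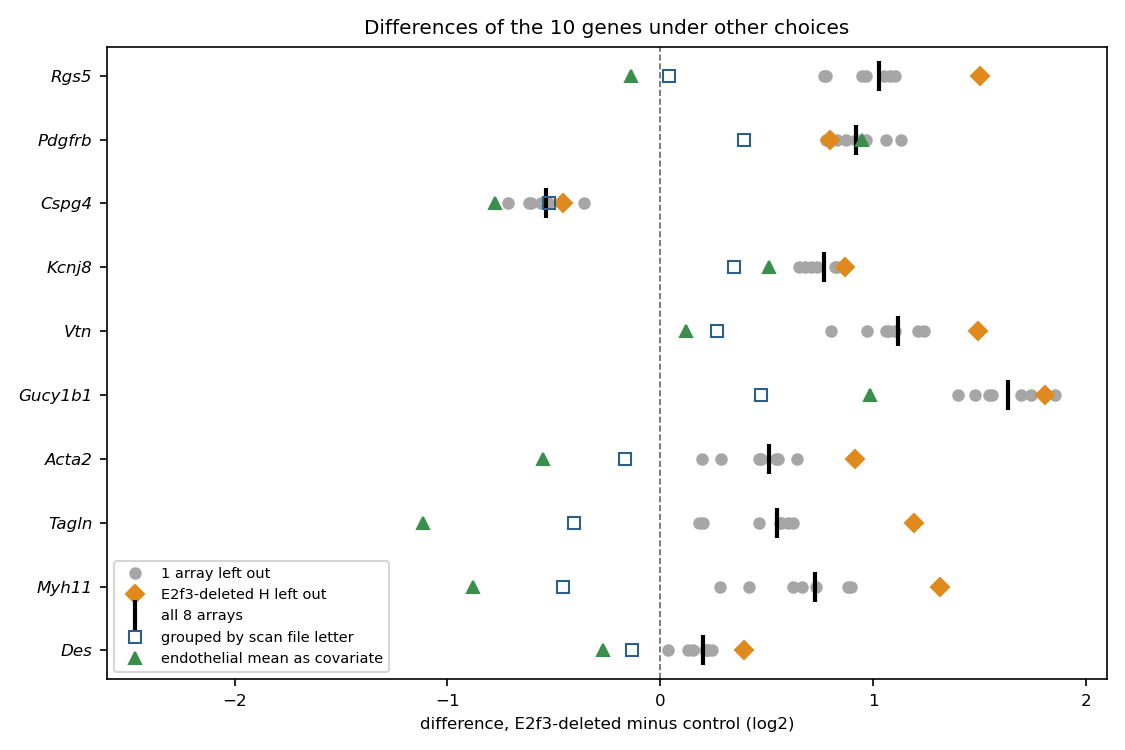
Difference in log2 signal, E2f3-deleted minus control (horizontal axis), of the 10 genes with all 8 arrays (bar) and with 1 array left out (grey circles, orange diamond for E2f3-deleted replicate H). Open squares show the grouping in which scan letters are read as title letters, and triangles the fit with the endothelial mean as a covariate. Gucy1b1, Kcnj8, Pdgfrb and Vtn stay above 0 under each of these, Cspg4 stays below 0, and the 4 contractile genes lie below 0 with the square and with the triangle.

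Other fits changed the size of the differences. With the mean of the endothelial list as a covariate, Gucy1b1 differed by 0.99 (SE 0.340), Pdgfrb by 0.95 (SE 0.371), Kcnj8 by 0.51 (SE 0.220), Vtn by 0.12 (SE 0.292), Rgs5 by −0.14 (SE 0.293) and the 4 contractile genes by −1.11 to −0.27, none past the threshold (limma). That mean was itself higher in E2f3-deleted arrays A, E and F. Its correlations with Rgs5 and the contractile genes over the same arrays were 0.783 to 0.941, so this fit cannot separate it from the group difference. The labels also give scan file letters that differ from the letters of the titles, A to D for the controls and E to H for the E2f3-deleted arrays. By their order they keep the groups of the titles. Read as if they were title letters, an assumption of the fit, they move array B to the E2f3-deleted and array F to the control group. In that grouping the differences of Gucy1b1, Pdgfrb and Kcnj8 were 0.47, 0.39 and 0.35, that of Rgs5 was 0.04, and those of the 4 contractile genes lay between −0.46 and −0.13. Cspg4 had −0.52.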

How the data were processed

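Total RNA of F4/80-positive tumour macrophages was measured on Affymetrix arrays. For 8 arrays the authors deposited log2 values of 45101 probe sets, computed with RMA per the submitters' processing notes, its version not given in the sources used here. This method makes the arrays' distributions equal and compresses signals near either end. Values were used as deposited, with groups from the titles. The largest share of identical values between a pair of arrays was 0.317%, so each array was counted once. Replicate letters are not shared by the groups, so nothing was paired.

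Of the probe sets 34958 had exactly 1 gene symbol in the platform annotation. The brightest probe set by mean stood for a gene, and genes under the 40th percentile of it were left out. The test of differences was limma 3.58.1 under R 4.3.3 (lmFit, eBayes, two-sided, Benjamini-Hochberg over all genes tested), which was tested on simulated data. The number of arrays limits precision. Members and lists were chosen with earlier results of these data known. Named are the members, the 4 related genes per list with the smallest p, the 2 markers per other cell type with the highest mean and the 5 closest genes by correlation of 4 members. Upstream sequences came from RefSeq (GRCm38.p6), which matched 7 members.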

Additional observations from a re-analysis of the deposited data

Results flagged for a closer look

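In groups of 4 arrays, the highest or lowest value was marked where its gap to its neighbour was a large share of the whole range (Dixon's test). Of 96 gene and group pairs tested, 7 were marked, where chance marks about 1 in 20, and none was in the 10 pericyte and smooth muscle genes.

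Among related genes, Cald1 had 11.05 in E2f3-deleted replicate E, against 11.70 to 11.82 on the other E2f3-deleted arrays. Vasp had 8.63 in E2f3-deleted replicate E, against 8.29 to 8.34. Pdgfa had 9.96 in E2f3-deleted replicate H, against 9.12 to 9.24. Nos1 had 5.99 in control replicate B, against 6.10 to 6.12. Among markers of other cell types, Mbp had 9.11 in E2f3-deleted replicate H, against 9.71 to 9.76, and the mast cell proteases Cma1 and Cpa3 had 6.30 and 6.56 in control replicate D, against 7.44 to 7.62 and 8.13 to 8.34.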

How the results depend on the processing

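No member passed the threshold under any alternative. All genes past it numbered 0 with all arrays and 0 to 60 when each array was left out, with 60 without E2f3-deleted replicate E and 14 without H. Members with a positive difference numbered 9 of 10, 4 of 5 at the 60th percentile filter, 5 of 10 with scan file letters and 4 of 10 with the endothelial covariate. Signs turned with scan file letters read as title letters for Acta2 (−0.16), Tagln (−0.41), Myh11 (−0.46) and Des (−0.13). They turned with the endothelial covariate for Rgs5 (−0.14), Acta2 (−0.55), Tagln (−1.11), Myh11 (−0.88) and Des (−0.27). The cause was not tested. With array weights, Acta2, Tagln, Myh11 and Des had 0.82, 1.03, 1.22 and 0.35. These weights were 0.306 for array H and 0.841 to 1.795 for the others, so that fit counts H least. No paired analysis was possible because the replicate letters are not shared by the groups. Dim probe sets limit what can be seen.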

Other observations

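Some related genes lay under the filter on mean signal and were looked at outside the naming rule, after their values were seen. Gucy1a1, the alpha subunit that pairs with Gucy1b1, had log2 signals of 7.58, 5.96, 7.44 and 4.96 in E2f3-deleted arrays A, E, F and H, against 4.63, 5.46, 4.80 and 5.49 in control arrays B, C, D and G. Unlike Gucy1b1, it had replicate H among the controls. Pde5a, which breaks down cyclic GMP, had 6.84, 5.85, 6.53 and 6.04 in E2f3-deleted arrays A, E, F and H, against 4.85, 5.47, 5.43 and 5.68 in the controls, without overlap.

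Pdgfd, a ligand of Pdgfrb, had 6.99, 5.52, 6.45 and 7.41 in E2f3-deleted arrays A, E, F and H, against 4.45, 4.68, 4.68 and 4.87 in the controls, without overlap (difference 1.92, SE 0.356; limma without the filter, adjusted p = 0.186). Foxs1, a transcription factor of pericytes, had a difference of 0.80 in that fit, with groups that did not overlap. Fabp4, a fatty acid binding protein in the fat cell list, was above the filter. It had 10.91, 10.37, 10.89 and 9.33 in the E2f3-deleted replicates, against 7.01, 9.27, 8.41 and 8.78 in the controls, without overlap. Adipoq of the same list had means of 3.81 in E2f3-deleted and 3.49 in control arrays. Which cells gave the Fabp4 signal was not tested.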
